A study of Mus musculus with 22 samples.

Results

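A set of 10 genes used as markers of cardiac macrophages was followed in both ventricles of the neonatal mouse heart. They are Adgre1, Csf1r, Cd68, Lyve1, Timd4, Mrc1, Cd163, C1qa, C1qb and Folr2, chosen by symbol among the Ensembl genes that the GENCODE annotation of mm10 names. All 10 had a row in both tables, of 49670 genes in the right ventricular (RV) table and 49671 in the left ventricular (LV) table. The groups were nPAB, with neonatal pulmonary artery banding against a 30 gauge needle, and Sham, with the sham operation. All mice were CD1, operated at postnatal day 1, and their hearts were taken 7 days later. Bulk RNA of the RV and the LV came from 6 nPAB mice and 5 Sham mice, which gave 22 libraries. Banding narrows the pulmonary artery and so loads the RV, while the LV of the same heart does not eject into that vessel. All libraries carried 1 batch label, so no batch could be compared.

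Macrophages of the heart derive from embryonic progenitors that persist in the tissue and from blood monocytes that enter it. Their survival depends on the receptor encoded by Csf1r, and they make C1q, the recognition molecule of the classical complement pathway. Lyve1, Timd4 and Folr2 are used to mark long-lived resident macrophages, and Ccr2 to mark cells that came from monocytes. In bulk RNA, fewer macrophages and less RNA per macrophage cannot be told apart.

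Promoter sequences are shown for 3 of the markers described below. C1qb had the highest level per length, Mrc1 varied least between libraries, and Cd163 was farthest from 0 in the difference between the ventricles. The sequences are from RefSeq on GRCm38.p6, 5′ to 3′ in the direction of the gene, from 250 bases before to 50 bases after its start. The RefSeq promoter table used here matched 6 of the 10 markers. Capitals mark the PU box, GAGGAA or TTCCTC on the other strand, the core of sites bound by the myeloid factor PU.1; no other motif was searched.
C1qb, chr4:136886151-136886450, minus strand: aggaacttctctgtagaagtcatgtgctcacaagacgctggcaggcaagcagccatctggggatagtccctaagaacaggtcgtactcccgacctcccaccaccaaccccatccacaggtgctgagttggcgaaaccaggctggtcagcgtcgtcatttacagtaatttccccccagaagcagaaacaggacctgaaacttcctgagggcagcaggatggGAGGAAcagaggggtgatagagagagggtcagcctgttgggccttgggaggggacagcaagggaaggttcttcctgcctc
Mrc1, chr2:14229164-14229463, plus strand: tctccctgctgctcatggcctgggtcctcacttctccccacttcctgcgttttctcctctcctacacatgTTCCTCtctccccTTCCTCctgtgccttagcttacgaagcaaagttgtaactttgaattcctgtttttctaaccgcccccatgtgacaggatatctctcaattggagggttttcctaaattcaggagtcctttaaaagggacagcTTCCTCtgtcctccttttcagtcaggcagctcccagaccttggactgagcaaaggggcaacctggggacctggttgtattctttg
Cd163, chr6:124304401-124304700, plus strand: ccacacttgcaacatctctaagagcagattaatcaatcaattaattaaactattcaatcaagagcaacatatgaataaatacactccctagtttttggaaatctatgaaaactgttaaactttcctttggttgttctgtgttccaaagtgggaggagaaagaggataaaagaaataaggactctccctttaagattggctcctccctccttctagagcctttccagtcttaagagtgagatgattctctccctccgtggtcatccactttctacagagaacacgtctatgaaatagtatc
The window held 1 PU box in C1qb, 3 in Mrc1 and none in Cd163. The 6 matched markers had 7 promoters in the table, of which 3 held the box, those of C1qb, Cd68 and Mrc1; of all 32851 promoters in the table, 28.3% held it. A match is a run of letters and was not tested as a binding site.

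Libraries held 7.11 to 11.3 M reads, with group means of 9.47 ± 0.550 M in RV nPAB, 8.61 ± 1.29 M in RV Sham, 9.73 ± 1.22 M in LV nPAB and 8.10 ± 0.640 M in LV Sham (SD, n = 6 for nPAB and 5 for Sham). The libraries were those of myocardium, with all 6 cardiomyocyte markers examined present and a summed level of at least 292138 normalized counts in every library. Libraries with the same operation and number were taken as 1 mouse. By Xist and the Y-linked Ddx3y, 9 of 11 mice had an RV and an LV library of the same sex. In nPAB mouse 6 the RV library was female and the LV library male, and in nPAB mouse 7 the RV library was male and the LV library female. Values without these mice are given where leaving them out ends or makes a call or turns a sign.

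Levels of different genes are compared as RPKM, a read count divided by the gene's exonic length and by the library total. C1qb, the B chain of C1q, was the highest of the 10 in every group, with 26.9 ± 8.79 RPKM in RV nPAB and 24.3 ± 5.81 RPKM in RV Sham, and 28.9 ± 14.6 RPKM in LV nPAB and 21.1 ± 5.54 RPKM in LV Sham. Lyve1, a hyaluronan receptor, had 11.7 ± 5.25 RPKM in RV nPAB and 9.70 ± 2.90 RPKM in RV Sham. Cd68, an endosomal and lysosomal glycoprotein, had 9.43 ± 1.52 RPKM in RV nPAB and 11.8 ± 4.34 RPKM in RV Sham. Mrc1, the mannose receptor CD206, followed with 7.37 ± 0.911 RPKM in RV nPAB and 8.602 ± 1.09 RPKM in RV Sham. C1qa, the A chain of C1q, had 7.24 ± 2.60 RPKM in RV nPAB and 7.20 ± 2.78 RPKM in RV Sham. These 4 genes below C1qb lay within 1 SD or close to it of their neighbours in the order, so their order is not resolved.
Csf1r had 4.10 ± 1.22 RPKM in RV nPAB and 5.91 ± 1.71 RPKM in RV Sham. Adgre1, the adhesion receptor F4/80, had 3.71 ± 2.21 RPKM in RV nPAB and 3.26 ± 1.99 RPKM in RV Sham. The gap between Csf1r and Adgre1 was within 1 SD in RV nPAB and above 1 SD in RV Sham. Cd163, the scavenger receptor for haptoglobin and hemoglobin complexes, was far lower, with 0.534 ± 0.308 RPKM in RV nPAB and 0.814 ± 0.204 RPKM in RV Sham. In the LV the markers fell into the same 3 tiers, with C1qb on top, Cd163 at 0.848 ± 0.331 RPKM in nPAB and 0.538 ± 0.0716 RPKM in Sham, and the 6 others from 2.65 to 11.0 RPKM in the group means. Timd4, the phosphatidylserine receptor TIM-4, and Folr2, folate receptor beta, were near 0. Each ventricle's table had its own scaling, so levels set across ventricles are descriptions.

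**Figure D1:**
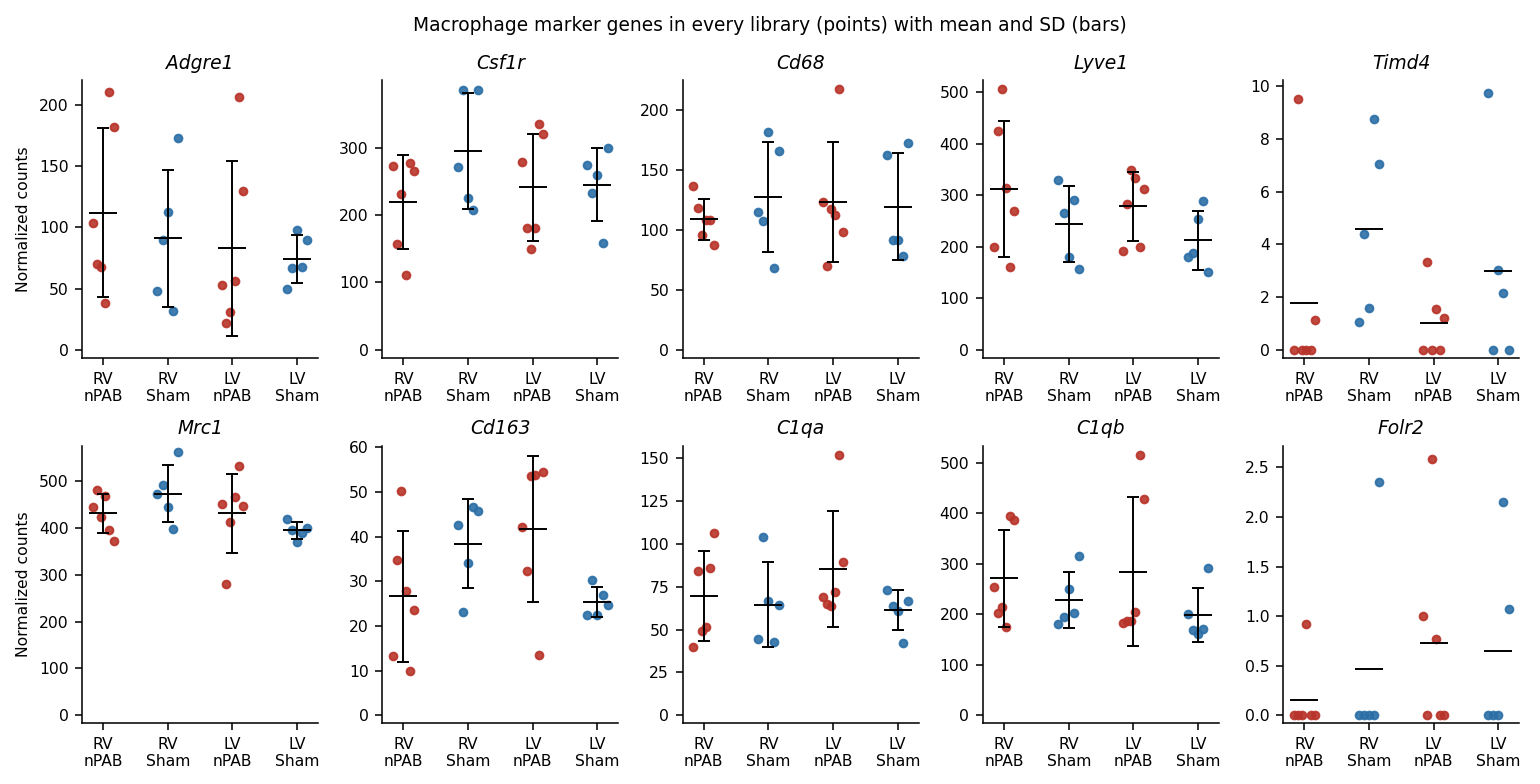
Normalized counts (y axis, linear) of the 10 markers in RV nPAB, RV Sham, LV nPAB and LV Sham, 1 point per library; long ticks are means and error bars SDs, left out for Timd4 and Folr2, where most libraries held few or no reads. The groups overlap for every marker, and a pair of nPAB libraries stands high for Adgre1 and C1qb in both ventricles.

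Banding was not followed by a detected change of any marker. Of the 8 markers with a mean of at least 10 normalized counts, none passed an adjusted p of 0.05 with limma and Benjamini-Hochberg adjustment over all genes. In the RV 22.0% of 13660 genes passed, 11.1% higher and 10.8% lower, and in the LV 9.31% of 13528, 4.76% higher and 4.55% lower. No marker reached an unadjusted p of 0.05 in either ventricle, which 33.8% of genes did in the RV and 24.6% in the LV, and edgeR and DESeq2 on recovered reads called none. No marker had groups that did not overlap, against 12.9% of genes in the RV and 6.53% in the LV. The median log2 fold change of the 8 markers was -0.02 in the RV and 0.25 in the LV, beside 0.00 and -0.01 over all genes tested.

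Among the general macrophage genes, Adgre1 (mm10 chr17:57358691-57483527, plus strand) had a lowest, median and highest value of 37.9, 87.0 and 210 normalized counts in RV nPAB, against 47.8, 89.9, 113, 32.1 and 173 in the 5 RV Sham libraries. In the LV it had 21.6, 54.6 and 207 in nPAB, against 49.7, 66.4, 97.4, 67.8 and 89.3 in Sham. The groups overlapped, and the highest 2 values in RV nPAB and LV nPAB came from mice 10 and 11. The log2 fold change of Adgre1 was 0.30 ± 0.52 in the RV (SE, adjusted p = 0.738 with limma, 95% interval -0.83 to 1.43) and -0.22 ± 0.49 in the LV (adjusted p = 0.83 with limma, 95% interval -1.29 to 0.85). Its SD was 61.5% of the mean in RV nPAB and 86.1% in LV nPAB, against 61.3% in RV Sham and 25.9% in LV Sham, and its intervals were the widest of the 8 markers in each ventricle. Without nPAB mice 6 and 7 the LV value was 0.39.

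Csf1r, the receptor for CSF1 and IL-34, had a lowest, median and highest value of 111, 249 and 277 in RV nPAB, against 271, 385, 225, 207 and 386 in RV Sham. The 2 highest Sham values lay above every nPAB library, but the other 3 lay within the nPAB range. The log2 fold change of Csf1r was -0.45 ± 0.25 in the RV (unadjusted p = 0.0932, adjusted p = 0.227 with limma). In the LV, Csf1r had 150, 230 and 334 in nPAB, against 275, 233, 259, 158 and 299 in Sham, with a log2 fold change of -0.06 ± 0.22 (adjusted p = 0.902 with limma) that was 0.18 without nPAB mice 6 and 7. Exons of Hmgxb3, on the opposite strand, cover 15.1% of the exonic bases of Csf1r, and nothing in the labels tells if reads were counted by strand.
Cd68 averaged 109 ± 17.1 in RV nPAB and 128 ± 46.1 in RV Sham, and 123 ± 49.98 in LV nPAB and 119 ± 44.4 in LV Sham. Its log2 fold changes were -0.16 ± 0.22 in the RV (adjusted p = 0.666 with limma) and 0.03 ± 0.27 in the LV (adjusted p = 0.954 with limma). The LV mean in nPAB rested on mouse 10, at 217, while the 5 other nPAB libraries lay from 69.7 to 123.

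The complement genes C1qa and C1qb lie close together on chromosome 4, at positions 136895917 to 136898803 and 136880129 to 136886187 of mm10, both on the minus strand. C1qb had a lowest, median and highest value of 175, 234 and 395 normalized counts in RV nPAB, against 181, 194, 249, 203 and 316 in RV Sham. In LV nPAB it had 184, 188, 187, 205, 515 and 428, against 200, 169, 161, 170 and 292 in LV Sham. In LV nPAB, mice 10 and 11 alone lay above the Sham range, and the 4 other nPAB libraries lay among the Sham libraries. The log2 fold change of C1qb was 0.20 ± 0.22 in the RV (adjusted p = 0.553 with limma) and 0.41 ± 0.29 in the LV (adjusted p = 0.426 with limma). C1qa averaged 69.6 ± 26.3 in RV nPAB and 64.6 ± 24.7 in RV Sham, and 85.2 ± 33.9 in LV nPAB and 61.3 ± 11.7 in LV Sham. Its log2 fold changes were 0.10 ± 0.28 (adjusted p = 0.85 with limma) and 0.42 ± 0.24 (adjusted p = 0.296 with limma) in the RV and the LV.

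Of the markers associated with resident macrophages, Mrc1 (mm10 chr2:14229392-14332057, plus strand) was the steadiest. It averaged 431 ± 41.9 normalized counts in RV nPAB and 473 ± 60.7 in RV Sham, and 431 ± 84.2 in LV nPAB and 395 ± 18.0 in LV Sham. Its log2 fold change was -0.13 ± 0.11 in the RV, with a 95% interval of -0.35 to 0.09, and 0.10 ± 0.13 in the LV, with a 95% interval of -0.17 to 0.37 (adjusted p = 0.414 and 0.682 with limma). The interval for Mrc1 was the narrowest of the 8 in each ventricle.

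Lyve1 (mm10 chr7:110850607-110863239, minus strand), which lymphatic endothelium also makes, had a lowest, median and highest value of 161, 292 and 505 in RV nPAB, against 330, 265, 180, 290 and 157 in RV Sham. In the LV it had 193, 298 and 349 in nPAB, against 180, 188, 255, 288 and 151 in Sham. The groups overlapped in both ventricles. The log2 fold change of Lyve1 was 0.30 ± 0.30 in the RV (adjusted p = 0.538 with limma) and 0.39 ± 0.19 in the LV (unadjusted p = 0.0557, adjusted p = 0.216 with limma). The 2 highest RV values, 425 and 505, were those of nPAB mice 6 and 7, and without these mice the RV value was -0.042.
Lymphatic markers were read beside Lyve1. Prox1, a transcription factor of lymphatic endothelium that cardiomyocytes also make, fell in both ventricles, with log2 fold changes of -1.34 ± 0.10 in the RV and -1.18 ± 0.15 in the LV (adjusted p = 3.38e-07 and 2.86e-04 with limma). Flt4, the receptor VEGFR3, rose in the RV by 0.46 ± 0.12 on the log2 scale (adjusted p = 0.0103 with limma; 0.0584 without mice 6 and 7), and Pdpn, Mmrn1 and Reln passed in neither ventricle. The summed level of the 6 lymphatic markers was 1401 to 1795 in RV nPAB and 2560 to 3320 in RV Sham, and Ccl21a was at 0 in both. Prox1 supplied most of that sum. The part of lymphatic RNA in the Lyve1 values was not tested.

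Cd163 (mm10 chr6:124304656-124330527, plus strand) had opposite signs in the ventricles. In the RV it had a lowest, median and highest value of 10.0, 25.7 and 50.3 normalized counts in nPAB, against 42.5, 23.0, 34.1, 46.7 and 45.8 in Sham. In the LV it had 42.2, 32.4, 53.5, 53.8, 13.5 and 54.4 in nPAB, against 22.4, 30.2, 22.3, 26.9 and 24.8 in Sham. In the LV, 5 of 6 nPAB libraries lay above every Sham library, and mouse 10 lay below them all. The log2 fold change of Cd163 was -0.66 ± 0.37 in the RV (unadjusted p = 0.0913, adjusted p = 0.224 with limma) and 0.57 ± 0.34 in the LV (adjusted p = 0.312 with limma). Without nPAB mice 6 and 7 the RV value was -1.07 and passed (adjusted p = 0.0474 with limma). Cd163 was counted from 10 to 70 reads per library, the fewest of the 8 markers.

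Timd4 and Folr2 were too low for the test across genes. Timd4 had 0 reads in 4 of 6 RV nPAB libraries, and 9.53 and 1.12 normalized counts in mice 6 and 11, against 1.06, 4.38, 1.59, 8.75 and 7.04 in RV Sham. It was above 0 in 2 of 6 RV nPAB libraries and in 5 of 5 RV Sham libraries, and the groups overlapped. An exact two-sided permutation test over all splits of the RV libraries gave p = 0.0736 for Timd4 on 34 reads in all. In the LV, on 22 reads, the exact permutation p was 0.394, with 3 of 6 nPAB and 3 of 5 Sham libraries above 0. A count of 0 allows up to 3 reads per library, for counting error only, so Timd4 was at the limit of this depth.
Folr2 had 3 reads in the 11 RV libraries and 8 in the 11 LV libraries, with exact permutation p = 0.909 and 0.957. Exons of the antisense gene Gm10602 cover 63.1% of the exonic bases of Folr2. Gm10602 itself had 20.4 to 62.8 normalized counts in RV nPAB and 48.4 to 79.8 in RV Sham. Whether reads of Folr2 were lost to that overlap was not tested.

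**Figure D2:**
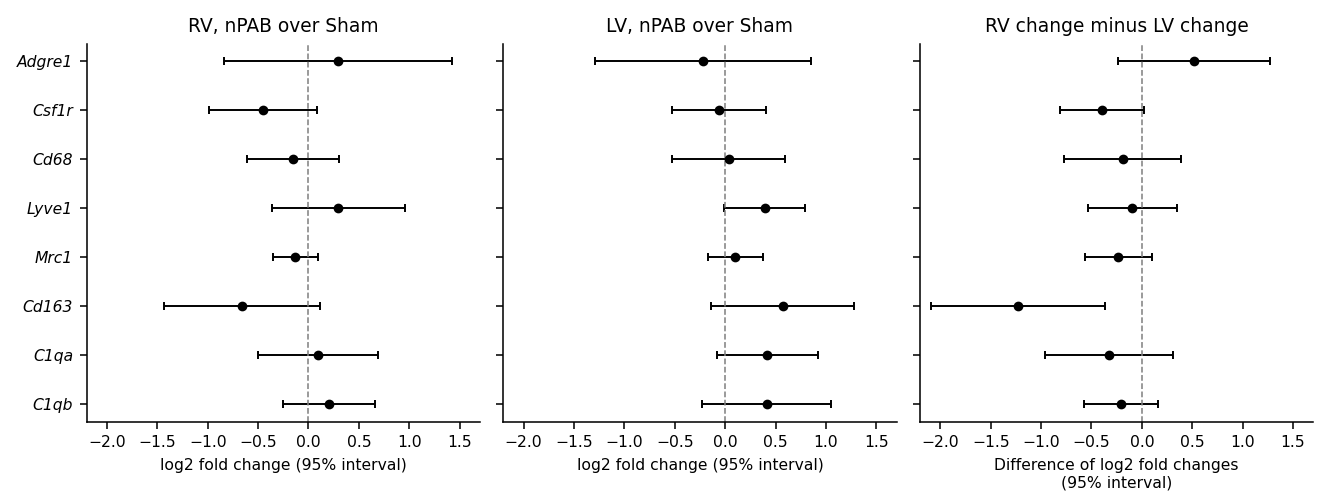
Points are log2 fold changes of nPAB over Sham in the RV and the LV, and the RV change minus the LV change, for the 8 markers tested (y axis); bars are 95% intervals from limma. All intervals in the RV and LV panels cross 0, and in the difference panel the interval of Cd163 lies below 0.

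The response was then compared between the ventricles, paired by operation and mouse number. The main fit kept nPAB mice 6 and 7, whose libraries differ in sex and so may not be true pairs. None of the 8 markers passed an adjusted p of 0.05 for the difference, which 1.11% of 13364 genes passed, 0.584% higher and 0.524% lower. Cd163 alone, 1 of the 8, had an unadjusted p under 0.05, as had 12.5% of all genes; edgeR and DESeq2 were not fitted to the difference. After the median over all genes was taken off, log2 RV minus LV for Cd163 averaged -0.73 ± 0.66 in nPAB mice and 0.52 ± 0.53 in Sham mice (SD, n = 6 and 5). It was above 0 in 1 of 6 nPAB mice and in 4 of 5 Sham mice. The difference of log2 fold changes was -1.23 ± 0.42 (unadjusted p = 0.00689, adjusted p = 0.185 with limma; adjusted p 0.0543 to 0.611 over the alternatives). This p ranked 496 among the 13364 genes. Without mice 6 and 7, whose ventricles differ in sex, it was -1.57 (adjusted p = 0.0543 with limma).
For Csf1r the difference was -0.39 ± 0.20 (adjusted p = 0.436 with limma) and for Adgre1 0.52 ± 0.37 (adjusted p = 0.636 with limma). The 5 other markers lay between -0.32 and -0.09. A value below 0 was seen for 7 of 8 markers, and the median was -0.22, beside 0.01 over all genes. The 8 values come from the same libraries, in which some of the markers varied together, so these signs are not independent.

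Within groups, some of the markers varied together from library to library. Each library was expressed as its deviation from the mean of its group on the log2 scale, and pairs of markers were correlated over the 11 libraries of a ventricle. Adgre1 and C1qb had r = 0.89 in the RV (rho = 0.84) and r = 0.82 in the LV (rho = 0.75), with permutation p = 2.9e-04 and 0.00105 for r, adjusted p = 0.0162 and 0.0238 over 56 pairs, and adjusted p = 0.0633 and 0.102 for rho. Without the 2 libraries farthest from the median of Adgre1, r was 0.95 in the RV and 0.70 in the LV. Csf1r and Adgre1 had r = 0.76 in the RV (rho = 0.79) and 0.72 in the LV (rho = 0.66), with permutation p = 0.00757 and 0.0113, adjusted p = 0.0376 for both over a family of 10, and adjusted p = 0.0521 and 0.10 for rho. Over the 56 pairs they did not pass (adjusted p = 0.0576 in the RV and 0.0590 in the LV, permutation test). Without the 2 farthest libraries these were 0.54 and 0.78.
C1qa and C1qb had r = 0.80 in the LV (rho = 0.75, permutation p = 0.00146, adjusted p = 0.0146, adjusted p = 0.0562 for rho; r = 0.75 without the 2 farthest) and r = 0.45 in the RV (rho = 0.30, permutation p = 0.162, adjusted p = 0.404, adjusted p = 0.532 for rho; r = 0.69 without them). Csf1r and C1qa had r = 0.79 in the LV (rho = 0.84, permutation p = 0.00170, adjusted p = 0.0238 over 56 pairs, adjusted p = 0.0633 for rho; r = 0.69 without the 2 farthest) and 0.34 in the RV (rho = 0.35, permutation p = 0.298, adjusted p = 0.407). Of the 28 pairs, 23 had the same sign of r in both ventricles. Lyve1 and Cd163 ran against most others, with r = -0.75 for Lyve1 and C1qb in the RV (rho = -0.76, permutation p = 0.00925, adjusted p = 0.0576, and 0.102 for rho; r = -0.55 without the 2 farthest) and r = 0.74 for Lyve1 and Cd163 in the RV (rho = 0.71, permutation p = 0.00887, adjusted p = 0.0576, and 0.112 for rho; r = 0.79 without them). Neither passed the adjustment over 56 pairs. Prox1, which cardiomyocytes also make, and Lyve1 had r = -0.41 in the RV (rho = -0.40, permutation p = 0.205, adjusted p = 0.410, and r = -0.71 without the 2 farthest). In the LV they had r = 0.13 (rho = 0.04, permutation p = 0.705, adjusted p = 0.705, and r = 0.38 without the 2 farthest). Lyve1 with Folr2 or Timd4 did not pass in either ventricle, with r from -0.30 to 0.38 (lowest adjusted p = 0.419, permutation test).

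**Figure D3:**
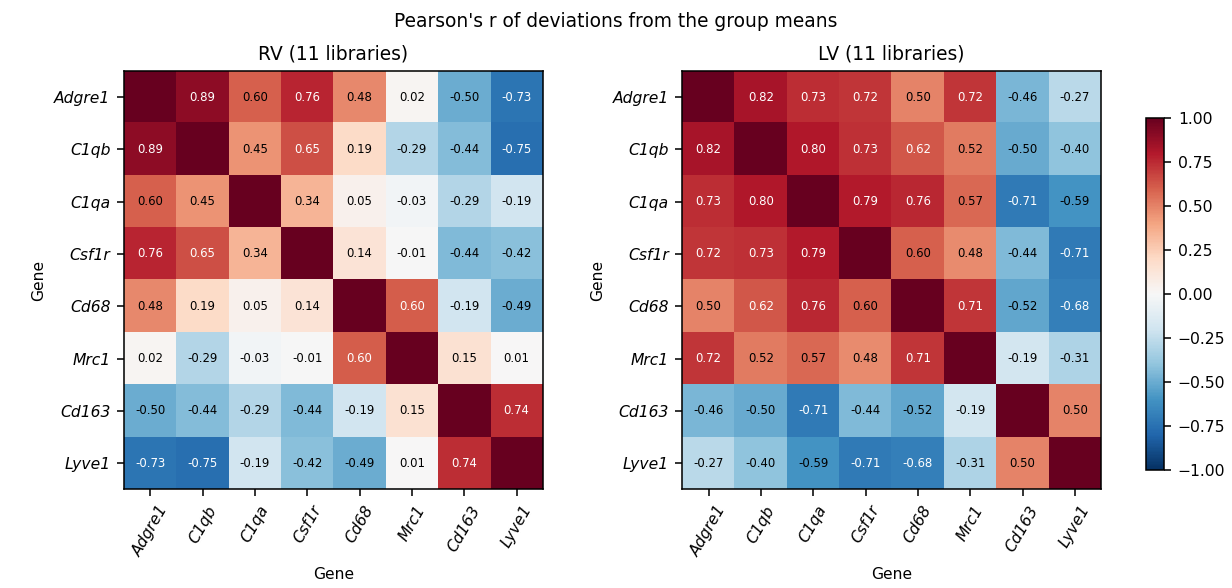
Colour and number give Pearson's r between the deviations of each pair of markers from their group means, over 11 RV libraries and 11 LV libraries. Adgre1, C1qb, C1qa and Csf1r form a block of positive values in the LV, 0.72 to 0.82, while Lyve1 and Cd163 are negative with each of them in both ventricles.

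The co-variation rested in part on 3 mice. C1qb was high in nPAB mice 10 and 11 and in Sham mouse 13 in both ventricles, 395, 386 and 316 in the RV and 515, 428 and 292 in the LV, and the 8 other mice lay from 175 to 255 in the RV and from 161 to 205 in the LV. RV and LV deviations of C1qb over all 11 mice had r = 0.85 (rho = 0.61, permutation p = 0.00292, adjusted p = 0.0234 over a family of 8, adjusted p = 0.139 for rho). It was 0.65 without the 2 mice farthest from the median and 0.82 without nPAB mice 6 and 7. Since these 3 mice stand apart, whether C1qb varied together in the ventricles of the 8 others cannot be tested from the pooled value. The 3 were picked by their C1qb, so values without them cover a narrower range and are given as descriptions. Over the 8 other mice, RV and LV deviations of C1qb had r = -0.02. Adgre1 and C1qb had r = 0.72 in the RV and 0.36 in the LV of these 8. Csf1r and Adgre1 had 0.63 in the RV and 0.39 in the LV, C1qa and C1qb 0.01 in the RV and 0.63 in the LV, and Csf1r and C1qa 0.12 in the RV and 0.74 in the LV. For the 7 other markers, RV and LV deviations over all 11 mice had r from -0.31 for Mrc1 to 0.66 for Adgre1 and rho from -0.05 to 0.65, and none passed (lowest adjusted p = 0.0985 for r and 0.139 for rho over a family of 8, permutation test).
In the same nPAB mice, other leukocyte RNA was high too. The summed level of 6 pan-leukocyte genes was 594 and 450 in the RV of nPAB mice 10 and 11, against 219 to 316 in the 4 other nPAB mice, and 716 in Sham mouse 13, against 334.6 to 464 in the other Sham mice. The summed level of 17 other macrophage genes was 3640 and 3295 in RV nPAB mice 10 and 11, against 1808 to 2285 in the 4 others. The part of leukocyte content in these marker values was not tested.

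**Figure D4:**
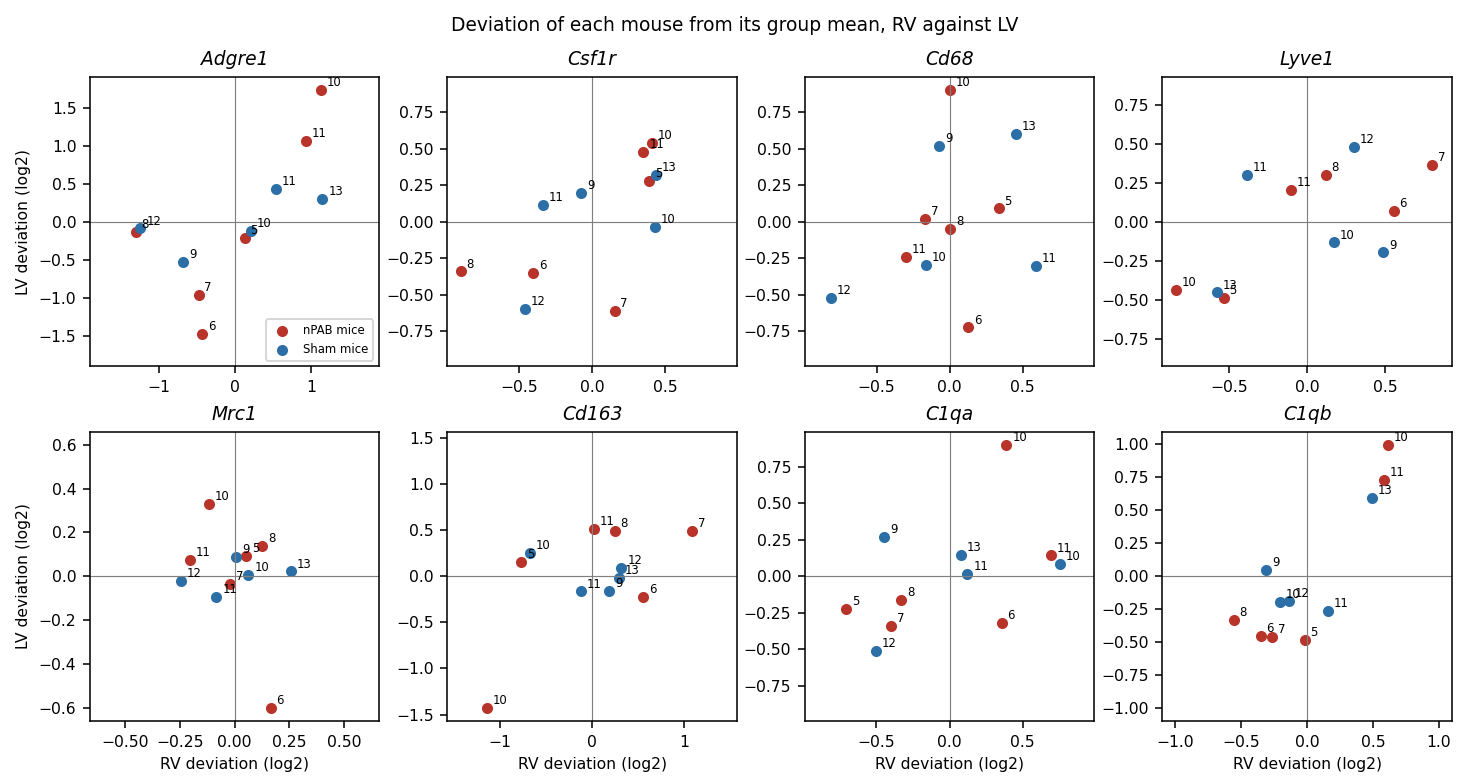
Each point is 1 mouse, placed by its deviation from the group mean in the RV (x axis) and the LV (y axis) on the log2 scale; numbers are mouse numbers within an operation. For C1qb, nPAB mice 10 and 11 and Sham mouse 13 sit in the upper right, apart from the 8 others.

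The genes whose deviations followed the mean of the markers most closely in both ventricles, out of 10228 compared whose mean was 50 or more, were Tlr13, Fcgr3, Ctss, Arpp19, Mocs2, Itga7, Lgmn and Bicd2. The lower of the RV and LV correlations, each over 11 libraries, ran from 0.83 for Tlr13 to 0.69 for Bicd2. Tlr13 is an endosomal receptor for bacterial RNA, Fcgr3 an Fc receptor for immunoglobulin G, and Ctss and Lgmn are lysosomal proteases, and Fcgr3, Ctss and Lgmn were also on the list of 17 other macrophage genes. Tlr13, Arpp19, Mocs2, Itga7 and Bicd2 were on none of the lists read here. The likeness of these genes to the markers is a description, since the genes were picked for it.

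Other genes of macrophages and of their growth factor pathway were read beside the markers. Of the 17 further macrophage genes, 1 fell and none rose in the RV, where 10.8% of all genes fell and 11.1% rose. None passed in the LV, where 9.31% of all genes did. The median log2 fold change was -0.03 in the RV and 0.10 in the LV. The gene that fell was Cx3cr1, the fractalkine receptor, with 36.7, 33.8, 40.0, 69.4, 81.0 and 110 normalized counts in RV nPAB, against 90.3, 130, 169, 56.4 and 163 in RV Sham, and a log2 fold change of -0.999 ± 0.34 (adjusted p = 0.0467 with limma). That call was lost in 12 of 24 alternatives, among them the fits without nPAB mouse 5, 6, 7 or 8 or Sham mouse 9, 10, 11 or 13 (adjusted p 0.0549 to 0.108), and that without nPAB mice 6 and 7 together (-0.70, adjusted p = 0.188). In the LV, Cx3cr1 averaged 53.8 ± 35.7 in nPAB and 98.5 ± 35.6 in Sham. It passed neither there nor in the difference between the ventricles, so the fall is not shown to be particular to the RV.
Among genes known from resident macrophages, Maf, a transcription factor, fell in the RV by 0.42 ± 0.14 on the log2 scale (adjusted p = 0.0386 with limma), a call lost without nPAB mouse 7 or 10 or Sham mouse 9, 12 or 13 (adjusted p 0.0644 to 0.101). In the LV, Maf had 275, 139, 241, 235, 231 and 306 normalized counts in nPAB, against 337, 417, 275, 277 and 355 in Sham. It passed neither there nor in the difference between the ventricles. F13a1, the A subunit of coagulation factor XIII, had -0.69 ± 0.24 in the RV and did not pass (adjusted p = 0.0515 with limma).

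Ccr2, the monocyte chemokine receptor, fell in the RV. It had 36.7, 24.3, 38.2, 32.4, 31.0 and 14.6 normalized counts in RV nPAB, against 48.9, 66.9, 77.8, 55.4 and 184 in RV Sham. Every nPAB library lay below every Sham library, and Sham mouse 13 was far above the other Sham mice. The log2 fold change of Ccr2 was -1.41 ± 0.33 (adjusted p = 0.00456 with limma), and it passed in all 24 alternatives, with values from -1.57 to -1.09. In the LV it was -1.04 ± 0.35 and did not pass (adjusted p = 0.0725 with limma), and the difference between the ventricles, -0.37 ± 0.43, did not pass either (adjusted p = 0.809 with limma).
Of the 10 monocyte genes, 3 were high enough to be tested in the RV, so the list was thin. Of these 3, 1 fell, where 10.8% of all genes fell. The summed level of the 10 averaged 92.1 ± 15.1 in RV nPAB and 168 ± 65.8 in RV Sham, of which Ccr2 alone was 29.5 and 86.6. Most of the gap between these group means was therefore that of Ccr2. Ptprc, the pan-leukocyte gene for CD45, had a log2 fold change of -0.87 ± 0.36 in the RV (adjusted p = 0.106 with limma). None of 6 pan-leukocyte genes passed in either ventricle, beside 22.0% of all genes in the RV and 9.31% in the LV.

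In the CSF1 receptor pathway, none of 8 genes tested passed in the RV, where 22.0% of all genes passed. In the LV 1 of 7 rose, where 4.76% of all genes rose. The ligands did not pass. Csf1, encoding the growth factor, had 164, 229 and 396 as lowest, median and highest in RV nPAB, against 269, 323, 256, 313 and 284 in RV Sham, and a log2 fold change of -0.27 ± 0.17 (adjusted p = 0.291 with limma). Il34, the other ligand, had 0.91 ± 0.46 in the RV (adjusted p = 0.174 with limma), and Spi1, the gene for PU.1, had -0.01 ± 0.38 (adjusted p = 0.993 with limma). Cebpb, a factor of myeloid and stress responses, rose to 63.9 ± 25.7 in LV nPAB, against 17.8 ± 6.92 in LV Sham, with a log2 fold change of 1.74 ± 0.35 (adjusted p = 0.00438 with limma). In the RV, Cebpb had 35.6, 78.0, 69.8, 65.7, 57.0 and 13.5 in nPAB, against 26.6, 13.2, 38.9, 32.1 and 28.2 in Sham. It passed neither there nor in the difference between the ventricles. Many cell types make Cebpb.

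Genes of phagocytosis and the lysosome, many of which heart muscle and stroma also express, passed in 1 direction. Of the 12 tested, 5 rose and none fell in the RV, where 11.1% of genes rose, and 2 rose and none fell in the LV, where 4.76% rose. Ctsb, cathepsin B, had a log2 fold change of 0.56 ± 0.09 in the RV and 0.39 ± 0.09 in the LV (adjusted p = 3.67e-04 and 0.00918 with limma). Lamp1, a lysosomal membrane protein, had 0.49 ± 0.08 and 0.21 ± 0.06 (adjusted p = 1.86e-04 and 0.0436 with limma). The LV call for Lamp1 was lost in 9 of the 11 fits that left out 1 mouse, all but those without nPAB mouse 5 or Sham mouse 10 (adjusted p up to 0.106), and without nPAB mice 6 and 7 (adjusted p = 0.0829). Fabp5, a fatty acid carrier, and Ctsd, cathepsin D, rose in the RV by 0.50 ± 0.11 and 0.36 ± 0.10 on the log2 scale (adjusted p = 0.00419 and 0.0130 with limma). The fifth gene was Cd9, a tetraspanin named after its value was seen, with 0.41 ± 0.14 (adjusted p = 0.0404 with limma). It was lost in all single-mouse fits but those without nPAB mouse 10 or Sham mouse 11 (adjusted p up to 0.118), and without nPAB mice 6 and 7 (adjusted p = 0.130).

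**Figure D5:**
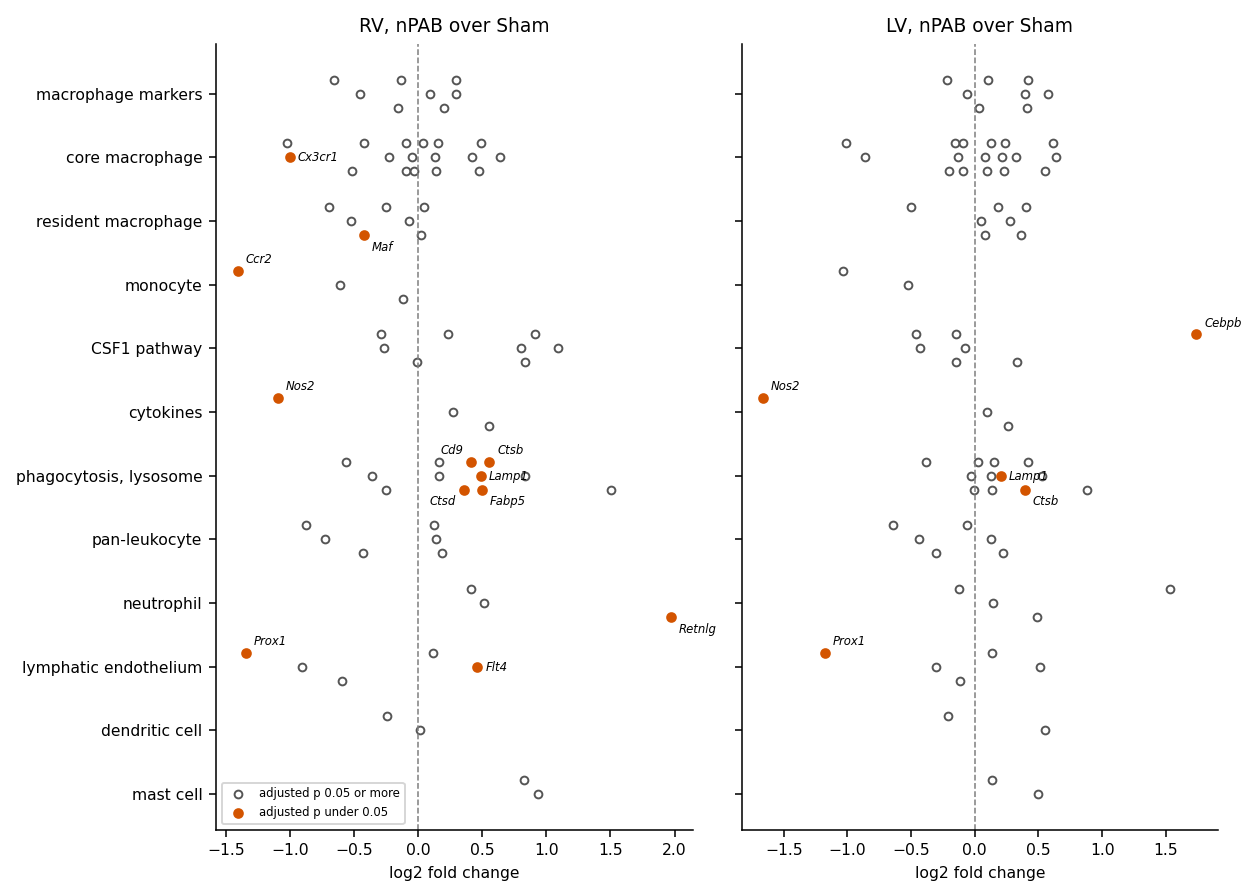
Log2 fold changes of nPAB over Sham (x axis) for tested genes of 12 lists (y axis) in the RV and the LV; filled and named points passed an adjusted p of 0.05 with limma, open points did not. The macrophage markers scatter around 0 with no filled point, while Ccr2 lies at -1.41 in the RV and the filled phagocytosis and lysosome genes lie right of 0.

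Few inflammatory genes could be tested. Of 12 cytokine and inflammation genes, 3 were high enough to be tested in each ventricle, and Il10 was at 0 in every library. Of the 3, 1 fell in each ventricle, beside 10.8% of all genes in the RV and 4.55% in the LV. That gene was Nos2, the inducible nitric oxide synthase, at 17.3 ± 6.55 in RV nPAB and 38.0 ± 13.8 in RV Sham, and 15.9 ± 7.30 in LV nPAB and 52.8 ± 22.5 in LV Sham (adjusted p = 0.0325 and 0.00625 with limma). The RV call was lost without nPAB mouse 5, 6 or 10 or Sham mouse 9, 10 or 12 (adjusted p 0.0512 to 0.0909).
Of the neutrophil genes, Retnlg rose in the RV to 22.0 ± 13.8, against 5.43 ± 3.94 in RV Sham (adjusted p = 0.0302 with limma), a call lost without nPAB mouse 6, 7 or 11 or Sham mouse 10 or 13 (adjusted p 0.0563 to 0.0746), and without nPAB mice 6 and 7 together (adjusted p = 0.133). Of the 3 neutrophil genes tested in the RV, the 2 others did not pass, and 11.1% of all genes rose there. In the LV, Retnlg had 20.1, 7.47, 22.4, 17.7, 16.3 and 23.0 in nPAB, against 6.82, 3.62, 11.2, 19.4 and 0 in Sham. It did not pass in the LV. Ly6g was at 0 in RV Sham. No gene of the dendritic cell, mast cell, erythroid or blood endothelial lists passed in either ventricle. Of all genes, 22.0% passed in the RV and 9.31% in the LV. No B, T or NK cell gene was high enough to be tested in the RV, while 1 was in the LV and did not pass. Of 6 fibroblast genes, 1 fell in the RV, where 10.8% of all genes fell. That gene was Pdgfra, which fell by 0.45 ± 0.14 on the log2 scale (adjusted p = 0.0343 with limma). The call for Pdgfra was lost without nPAB mouse 5 or 10 or Sham mouse 9, 10, 11 or 12 (adjusted p 0.0514 to 0.0861). Of 6 cardiomyocyte genes, 1 rose and 2 fell in the RV, where 11.1% of all genes rose and 10.8% fell. In the LV 1 of the 6 rose, where 4.76% of all genes rose. Actn2, a sarcomere protein, rose by 0.52 ± 0.07 in the RV and 0.28 ± 0.06 in the LV on the log2 scale (adjusted p = 6.37e-05 and 0.00665 with limma). Tnni3, cardiac troponin I, and Ryr2, the calcium release channel, fell in the RV by 0.26 ± 0.09 and 0.32 ± 0.11 (adjusted p = 0.0447 and 0.0451 with limma). The call for Tnni3 was lost without nPAB mouse 5, 6 or 8 or any 1 Sham mouse (adjusted p up to 0.0977), and that for Ryr2 without nPAB mouse 6 or 10 or Sham mouse 9, 10, 12 or 13 (adjusted p up to 0.123). Without nPAB mice 6 and 7 both were lost (adjusted p = 0.0519 for Tnni3 and 0.0571 for Ryr2).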

How the data were processed

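RNA of bulk RV and LV myocardium was isolated with the RNeasy Plus Mini kit and libraries were built with Revelo RNA-Seq High Sensitivity reagents, per the labels. Cutadapt, featureCounts, DESeq2 and the mm10 build are listed in the submitters' processing notes, without versions or an aligner. The deposited values of each ventricle are a signal that the deposited tables call DESeq2 normalized counts, taken here as gene counts over 1 size factor per library. Divided by the step that 1 read makes, 100% came out whole to within 0.001, and these recovered reads gave depth, RPKM (exons of GENCODE M21) and the edgeR 4.0.16 and DESeq2 1.42.0 alternatives, which called 2997 and 3354 genes in the RV and 1243 and 1680 in the LV.

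Tests used limma 3.58.1 (trend and robust) on log2(value + 1) for genes averaging 10 or more. P-values are two-sided and Benjamini-Hochberg adjusted over all genes tested, with a threshold of 0.05. Fold changes on this scale understate those of low genes. The ventricles were compared through RV minus LV per mouse. The labels do not name the mouse beyond its number; RV and LV deviations of 12878 autosomal genes correlated from 0.13 to 0.38 in the 9 mice whose ventricles had the same sex and at 0.17 and 0.06 in nPAB mice 6 and 7. Libraries of a group differed beyond counting noise (chi-square per degree of freedom at least 7.47). The limma p-values set the difference between nPAB and Sham against the spread between these libraries, or mice, within the groups. Markers and the 16 other lists were chosen with earlier results of these data known. A result of the resident macrophage list is not reported here. Named genes are all markers, up to 4 called genes per other list and comparison with the smallest p, and the 8 genes most like the markers. Correlations used permutation tests with 100000 resamples. The alternatives were other pseudocounts, filters, scalings, variance models, tools, a sex term, a mouse block, and leaving out mice. All pairs of markers, RV against LV by mouse, and the correlations without 3 mice were added after the data were seen.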

Additional observations from a re-analysis of the deposited data

Results flagged for a closer look

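Single libraries stood far from the rest of their group in 5 of the 40 groups of marker values examined. The rule is set to flag about 5% of groups by chance. That share does not hold for Timd4 and Folr2, where most libraries held few or no reads, so the count is not read as an excess. Cd68 had 217 normalized counts in the LV of nPAB mouse 10, against 69.7 to 123 in the 5 other LV nPAB libraries. C1qa had 152 in the same library, against 63.9 to 89.5 in the others. Timd4 had 9.53 in the RV of nPAB mouse 6, against 0 to 1.12 in the others. Folr2 had 0.925 in the RV of nPAB mouse 8 and 2.35 in the RV of Sham mouse 13, while the other libraries of each group were at 0; these stand for 1 and 2 reads.

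Among the genes read beside the markers, 4 had an RV change that differed from the LV change in the test of that difference with limma. Lamp1 differed by 0.28 ± 0.06 on the log2 scale (adjusted p = 0.0186) and Actn2, a sarcomere protein, by 0.24 ± 0.05 (adjusted p = 0.0225). Axl, a receptor for the apoptotic cell bridge Gas6, differed by -0.49 ± 0.12 (adjusted p = 0.0261), with -0.36 in the RV and 0.14 in the LV. Pdgfra, a PDGF receptor that marks fibroblasts, differed by -0.58 ± 0.14 (adjusted p = 0.0261). None of these 4 calls held in every fit that left out 1 mouse, where the adjusted p reached 0.0652 for Lamp1, 0.0828 for Actn2, 0.0906 for Axl and 0.111 for Pdgfra. All 4 were also lost without the pairing by mouse (adjusted p 0.470 to 0.570 with limma). Without the trend and robust options all 4 were lost too (0.243 to 0.314). Axl and Pdgfra were lost with no filter on the mean (0.0611 and 0.0622), and Actn2 with another scaling, TMM (0.0503).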

How the results depend on the processing

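No marker passed in the RV, the LV or the difference under any alternative, except that 1, Cd163 (-1.07), passed in the RV without nPAB mice 6 and 7. Markers that did not pass changed sign: without these mice RV Lyve1 was -0.042, LV Adgre1 0.39 and LV Csf1r 0.18; with edgeR and DESeq2 LV Adgre1 was 0.15 and 0.16; with scaling by total reads LV Cd68 was -0.023. With 1 mouse left out, the values ran from -0.014 to 0.58 for RV Adgre1, -0.044 to 0.28 for RV C1qa, -0.57 to 0.072 for LV Adgre1, -0.15 to 0.19 for LV Cd68, -0.21 to 0.063 for LV Csf1r, -0.26 to 0.078 for Lyve1 in the difference and -0.36 to 0.032 for Cd68 in the difference. The count of genes called in the LV, 1260, was 739 without the trend and robust options and 670 without mice 6 and 7. The count called in the difference, 148, was 5 with no replicate block, that is without the pairing by mouse, 1 without the trend and robust options, 501 without mice 6 and 7, and 79 to 392 with 1 mouse left out. With the mouse as replicate block over all 22 libraries, the calls came to 3124 for the RV and 1523 for the LV, with no marker among them; of the called genes named above, Cx3cr1, Maf, Ryr2 and Tnni3 lost their RV call. Without the trend and robust options the RV calls of Cd9, Ctsd, Cx3cr1, Maf, Pdgfra, Retnlg, Ryr2 and Tnni3 were lost (adjusted p 0.0501 to 0.122; 0.0569 for Ctsd), as were the LV calls of Actn2 (0.0533), Ctsb (0.0590) and Lamp1 (0.130), with limma. With no filter on the mean the RV calls of Cd9, Cx3cr1, Maf, Nos2, Ryr2 and Tnni3 were lost (adjusted p 0.0548 to 0.126 with limma), and with scaling by total reads those of Cd9 in the RV and Lamp1 in the LV (0.124 and 0.106). The cause of these changes was not tested beyond the fewer mice fitted. Depth limits Timd4, Folr2 and Cd163 most, and the wide intervals of Adgre1 do not show that it was unchanged.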
